A study of Mus musculus with 28 samples.

Results

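The 10 genes described here encode nucleic acid sensors and interferon regulators of the mouse: the sensor genes Mb21d1 (cGAS), Ddx58 (RIG-I), Ifih1 (MDA5), Dhx58 (LGP2) and Zbp1, the adaptor genes Tmem173 (STING) and Mavs, the transcription factor genes Irf3 and Irf7, and the nuclease gene Trex1. They were taken by name for their place in the pathway, without a threshold on any value. All 10 were found among the 44674 genes of the bulk RNA-seq table and among the 26790 genes that were tested there, and all 10 were among the 23532 genes used in single cells.

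Ovaries of juvenile female mice were collected 6 h after whole-body gamma irradiation with 0.5 Gy (IR) or after sham treatment (nonIR, 0 Gy). The females were wild type (WT) or lacked Chek2 in all tissues (Chek2-/-, from the tm1b knockout allele), the gene of checkpoint kinase 2, which passes the DNA double-strand break signal from ATM to p53 family proteins. Bulk RNA-seq held 6 libraries in each of the 4 groups, from females 7 to 9 days old. Single-cell RNA-seq held 1 library per group, each made from the pooled ovaries of 4 females at 7 days, so a group difference in single cells has no replicate behind it. The comparisons asked how the 10 genes responded to IR in each genotype, whether the response differed between genotypes, and whether the genotypes differed without IR.

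The proteins of the set form a relay. cGAS binds DNA in the cytosol and makes cyclic GMP-AMP, which activates STING, while RIG-I and MDA5 bind double-stranded or 5′-triphosphate RNA and signal through MAVS, with LGP2 as a regulator of that step, and ZBP1 binds Z-form nucleic acids and can start necroptosis. Both adaptors lead to phosphorylation of IRF3 and IRF7, which switch on interferon genes, and TREX1 degrades cytosolic DNA and so limits cGAS. Ddx58, Ifih1, Dhx58, Zbp1 and Irf7 are known as genes that interferon itself induces, through the transcription factor complex ISGF3, whereas Irf3 and Mavs are known for steady expression in most cells.

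ISGF3 binds the interferon-stimulated response element, and the core of this element, GAAA followed after any 2 bases by a further GAAA, was searched on both strands in the RefSeq promoter windows of mouse build GRCm38.p6, each 300 bases long. Windows were found for 7 of the 10 genes, and not for Tmem173, Dhx58 or Zbp1. The core was present in the windows of Ifih1 and Ddx58, and, counting a gene when any of its windows held the core, it was present for 3.99% of all 27025 genes with a window and for 12 of the 17 genes with a window in a list of 25 interferon target genes. Those 2 windows are shown because they hold the match and belong to RNA sensor genes whose values across libraries are described below. Each is written 5′ to 3′ on the strand of its gene, and the capitals mark the match. Counted with the start site as the first base, the match of Ifih1 began at base 33 in the orientation of the gene. The match of Ddx58 began at base 3, on the opposite strand.
Ifih1, chr2:62646206-62646505, minus strand: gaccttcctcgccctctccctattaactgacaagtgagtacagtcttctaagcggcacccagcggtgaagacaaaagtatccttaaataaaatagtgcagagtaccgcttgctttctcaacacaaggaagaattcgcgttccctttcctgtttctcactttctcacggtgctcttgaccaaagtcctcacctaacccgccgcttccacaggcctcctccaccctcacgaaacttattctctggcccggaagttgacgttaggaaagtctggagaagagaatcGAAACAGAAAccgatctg
Ddx58, chr4:40239776-40240075, minus strand: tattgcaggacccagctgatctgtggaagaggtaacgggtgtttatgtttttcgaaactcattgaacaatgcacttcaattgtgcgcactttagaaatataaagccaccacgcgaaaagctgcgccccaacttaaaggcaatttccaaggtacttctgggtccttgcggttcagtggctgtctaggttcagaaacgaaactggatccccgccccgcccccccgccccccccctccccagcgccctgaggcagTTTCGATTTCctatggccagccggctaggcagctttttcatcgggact

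The bulk libraries held 17824920 to 32605519 estimated counts each, given here as CPM, the count of a gene relative to the TMM-scaled library total. Chek2 was measured at 22.4 ± 1.66 CPM in WT nonIR and 21.1 ± 1.98 CPM in WT IR, against 3.75 ± 0.545 CPM in Chek2-/- nonIR and 3.96 ± 0.526 CPM in Chek2-/- IR (SD, n = 6 each), so the libraries carried the genotype of their labels. Per 10000 unique molecular identifiers (UMIs), single cells held 0.109 and 0.104 Chek2 UMIs in the WT nonIR and IR libraries and 0.0349 and 0.0381 in the Chek2-/- libraries. Within each bulk group, 1 library was the highest for most of 25 interferon targets: WT nonIR replicate 5 for 22, WT IR replicate 6 for 18, Chek2-/- nonIR replicate 5 for 17 and Chek2-/- IR replicate 6 for 24. The first and the last of these were also far above the rest of their groups for Irf7, as given below, and are the libraries left out in the reduced fits. Chek2-/- IR replicate 6, together with Chek2-/- nonIR replicate 6, also had the lowest summed oocyte markers, 3105 and 2688 CPM, where the other Chek2-/- libraries held 4012 to 4929 CPM. The same libraries held the highest summed epithelial markers of the Chek2-/- groups, 703 and 842 CPM against 305 to 575 CPM in the others, and the part of this in their interferon target levels was not tested. In WT nonIR replicate 5 both sums, 4933 and 441 CPM, lay within the range of the other WT controls. Macrophage markers summed to 61.9 CPM in WT nonIR replicate 5, the highest of its group (others 45.9 to 55.3 CPM), and to 57.8 CPM in Chek2-/- IR replicate 6 (others 39.4 to 228 CPM). Neutrophil markers summed to 0.923 and 1.33 CPM there, within the range of their groups. Plasmacytoid dendritic cell markers summed to 5.54 CPM in the former, within its group, and to 2.84 CPM in the latter, the lowest of the 24 libraries. The part of these sums in the interferon target levels was not tested. Neutrophil markers were high in WT IR replicate 3 (1514 CPM) and Chek2-/- IR replicate 2 (1638 CPM) and at most 12.1 CPM elsewhere, and 0 of the 10 genes passed in any comparison when either of those libraries was left out.

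In the whole ovary, none of the 10 genes passed the threshold after IR in WT (adjusted p at most 0.05 over all genes, edgeR quasi-likelihood test), where 2.41% of all genes did. The fitted change was positive for 7 of the 10 genes, with a median of 0.22 on the log2 scale (all genes -0.00, with 48.7% positive), and it was highest for Irf7, Dhx58, Ifih1 and Ddx58 and lowest for Zbp1. At an unadjusted p under 0.05, 2 of the 10 genes, Ddx58 and Dhx58, and 11.4% of all genes passed. DESeq2 and limma-voom also called 0 of the 10. For IR in WT, IR in Chek2-/-, the difference between these and the genotypes without IR, DESeq2 called 3.05, 0.0523, 1.71 and 9.36% of all genes and limma-voom 2.43, 0.0112, 1.11 and 4.98%. After IR in WT the fitted change was positive for 9 of 9 macrophage markers (median 0.25, 0 called), 8 of 8 neutrophil markers (1 called) and 0 of 10 oocyte markers (median -0.20, 1 called), and the part of this in the changes of the 10 genes was not tested. The macrophage sum was highest in WT IR replicate 3 (155 CPM), and the other 5 WT IR libraries, at 44.3 to 65.6 CPM, overlapped WT nonIR (45.9 to 61.9 CPM). In bulk tissue, fewer cells of a type and less RNA per cell cannot be told apart.

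Dhx58 (chr11:100694884-100704271), the gene of LGP2, came nearest to the threshold. Its lowest, median and highest level was 0.869, 1.11 and 1.675 CPM in WT nonIR and 1.675, 2.18 and 2.37 CPM in WT IR. All 6 irradiated libraries lay above all 6 controls, by the last decimals at the point where the groups met, and 2.56% of all genes had WT groups that did not overlap. The change was 0.85 on the log2 scale (SE 0.26), with an adjusted p of 0.0945. Over 34 analyses, the main one included, the adjusted p ran from 0.000714 to 0.221. The lowest came from the fit without the 2 libraries picked on Irf7, described below. In Chek2-/- ovaries the levels were 1.05, 1.26 and 1.88 CPM without IR and 1.26, 1.46 and 4.47 CPM with IR, and the groups overlapped. Of the exonic bases of Dhx58, 141 are shared with the antisense gene Dhx58os, and no source used here gives the strand setting of the counting.

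Irf7 (chr7:141262706-141266481), which encodes the factor that amplifies interferon production, ran from 1.78 through a median of 2.74 to 9.84 CPM in WT nonIR and from 4.54 through 6.72 to 11.1 CPM in WT IR. The groups overlapped through a single control, WT nonIR replicate 5 at 9.84 CPM, since the other 5 controls were at or below 3.22 CPM. In Chek2-/- ovaries it ran from 1.84 through 3.24 to 4.76 CPM without IR and from 2.16 through 3.69 to 22.97 CPM with IR. There, the highest value belonged to Chek2-/- IR replicate 6, and the other 5 irradiated libraries lay within the range of the controls. The fitted changes were 1.01 (SE 0.51, adjusted p = 0.464) in WT and 1.02 (SE 0.51, adjusted p = 1) in Chek2-/-.

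Ifih1 (chr2:62595798-62646255) and Ddx58 (chr4:40203773-40239828), the genes of the RNA helicases MDA5 and RIG-I, were high in the same libraries. Ifih1 was at 6.05, 6.76 and 17.5 CPM (lowest, median, highest) in WT nonIR and at 7.93, 12.4 and 17.5 CPM in WT IR. Ddx58 was at 15.4, 20.9 and 33.5 CPM in WT nonIR and at 23.6, 30.1 and 39.1 CPM in WT IR. For both genes the highest control was WT nonIR replicate 5, and without it every irradiated library of Ddx58 lay above the controls. In Chek2-/- ovaries the medians hardly differed between nonIR and IR (8.61 and 8.55 CPM for Ifih1, 22.1 and 22.1 CPM for Ddx58), while replicate 6 of the IR group reached 31.8 and 61.7 CPM. The changes in WT were 0.53 (SE 0.34, adjusted p = 0.635) for Ifih1 and 0.52 (SE 0.25, adjusted p = 0.423) for Ddx58.

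**Figure D1:**
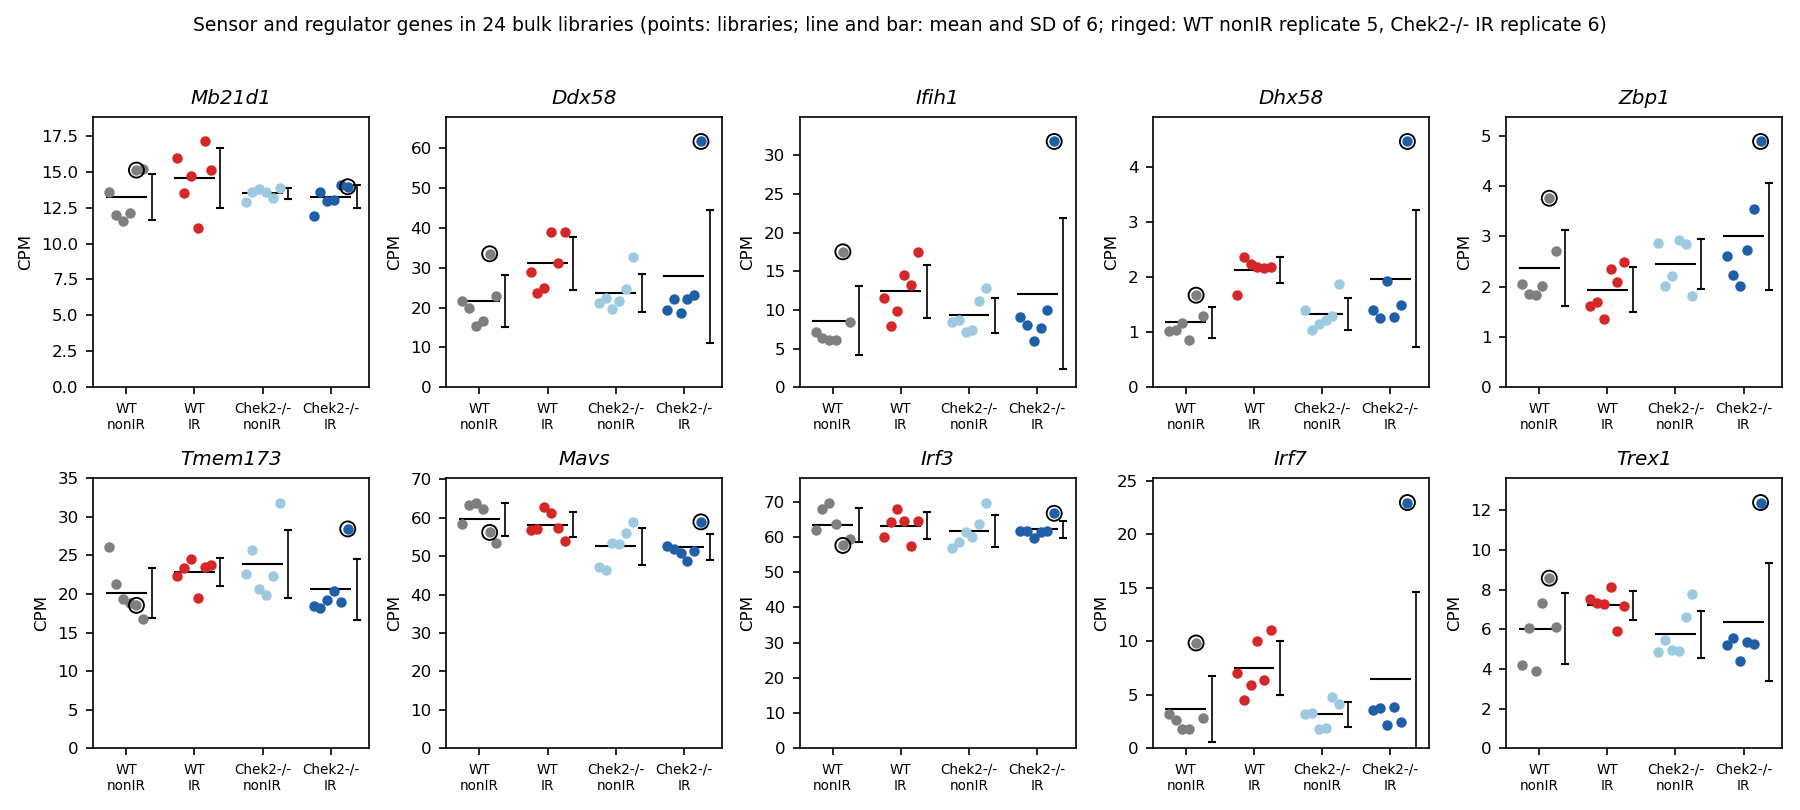
Level of each of the 10 genes in the 24 bulk libraries, in CPM on linear axes from 0 that differ between panels, by group, with 1 point per library, a line at the mean and a bar of 1 SD (n = 6), cut at 0 where it would pass below. Rings mark WT nonIR replicate 5 and Chek2-/- IR replicate 6: the latter lies above the rest of its group for every gene but Mb21d1, at 22.97 CPM for Irf7 and 61.7 CPM for Ddx58, and Irf3 and Mavs differ least between libraries.

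Mb21d1 (chr9:78430526-78443237), encoding the DNA sensor cGAS, ran from 11.6 through 12.8 to 15.2 CPM in WT nonIR and from 11.1 through 14.9 to 17.1 CPM in WT IR, and the groups overlapped at both ends. Its change was 0.14 (95% interval -0.04 to 0.31, adjusted p = 0.618) in WT and -0.02 (adjusted p = 1) in Chek2-/-. Zbp1 (chr2:173206612-173218923), encoding the Z-form nucleic acid sensor, was low throughout, at 1.83, 2.04 and 3.76 CPM in WT nonIR and 1.36, 1.89 and 2.50 CPM in WT IR. The Chek2-/- libraries held 1.81, 2.54 and 2.92 CPM without IR and 2.01, 2.67 and 4.89 CPM with IR. The fitted changes had opposite signs, -0.29 (SE 0.22, adjusted p = 0.735) in WT and 0.29 (SE 0.22, adjusted p = 1) in Chek2-/-, and the test of their difference gave -0.59 (SE 0.31, adjusted p = 0.618).

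Among the adaptors, Tmem173, the gene of STING, was at 16.7, 19.1 and 26.1 CPM in WT nonIR and at 19.4, 23.4 and 24.5 CPM in WT IR. It was at 19.9, 22.4 and 31.9 CPM in Chek2-/- nonIR and at 18.1, 19.1 and 28.4 CPM in Chek2-/- IR, where 4 of the 6 irradiated libraries lay below all controls. The change was 0.18 (SE 0.12, adjusted p = 0.657) in WT and -0.21 (SE 0.12, adjusted p = 1) in Chek2-/-. The difference between them, 0.39 (SE 0.17), had an unadjusted p of 0.0301 and an adjusted p of 0.463. Mavs (chr2:131234063-131248025), the mitochondrial adaptor of RIG-I and MDA5, was at 53.5, 60.4 and 63.9 CPM in WT nonIR and at 54.0, 57.1 and 62.8 CPM in WT IR, so IR moved it little (-0.03, 95% interval -0.16 to 0.09, adjusted p = 0.933).

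Irf3 (chr7:44997648-45002848), the constitutive factor that is phosphorylated downstream of both adaptors, was the steadiest of the set. It was at 57.6, 62.8 and 69.7 CPM in WT nonIR and at 57.3, 64.4 and 68.0 CPM in WT IR, and its change was -0.01 (95% interval -0.12 to 0.11, adjusted p = 0.999). Trex1 (chr9:109057933-109059734), the cytosolic DNA exonuclease, was at 3.92, 6.09 and 8.58 CPM in WT nonIR and at 5.90, 7.32 and 8.12 CPM in WT IR, with a change of 0.25 (SE 0.22, adjusted p = 0.781). All 1147 exonic bases of Trex1 are shared with Atrip on the same strand, so the split of reads between those genes is uncertain.

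Per kilobase of exonic sequence, Irf3 and Mavs were the highest of the set, with a median over the 24 libraries of 17.9 and 16.8 CPM per kilobase, and their ranges, 16.6 to 20.3 and 13.9 to 19.1, overlapped. Tmem173, whose highest library (11.6) lay below the lowest of Mavs, followed at 7.65, Trex1 at 5.22, and Mb21d1 and Ddx58 stood next to each other at 3.29 and 3.22 CPM per kilobase. Ifih1 (1.06), Irf7 (0.977), Zbp1 (0.63) and Dhx58 (0.43) were the lowest, with ranges that overlapped from each to the next.

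In Chek2-/- ovaries, 0 of the 10 genes passed the threshold after IR, where 0.0112% of all genes did. DESeq2 and limma-voom called 0 too, and 1 gene, Dhx58, had an unadjusted p under 0.05 (change 0.56, adjusted p = 1), beside 4.4% of all genes. The change was positive for 7 of the 10 genes with a median of 0.19 (49.9% of all genes positive), and without Chek2-/- IR replicate 6 for 2 of the 10 with a median of -0.05 (48.8%). The test of the difference between the genotypes in their response to IR called 0 of the 10 with each of the 3 tools (1.03% of all genes with edgeR), and Tmem173 alone had an unadjusted p under 0.05. Markers shifted too, with 0 of these called. After IR in Chek2-/-, 0 of 8 epithelial (median -0.25) and 0 of 8 perivascular markers (median -0.43) were positive. In the difference 8 of 8 of each were (medians 0.30 and 0.36), and 0 of 10 oocyte markers (median -0.24). The part of this in the 10 genes was not tested. The IR comparisons of the genotypes used different libraries, joined only through the scaling and the estimate of the spread shared in 1 fit. Their difference used all 4 groups, so a library that stood apart entered the comparison of its own genotype and the difference.

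No source used here says whether WT and Chek2-/- females were littermates. Genotype, line and litter therefore cannot be told apart between the genotypes, in bulk or in single cells. Without IR, Mavs had the lowest p of the set between the genotypes. It was at 46.5, 53.2 and 58.9 CPM in Chek2-/- nonIR against 53.5, 60.4 and 63.9 CPM in WT nonIR, with 4 of the 6 Chek2-/- libraries below all WT libraries. The change was -0.18 (SE 0.06, 95% interval -0.31 to -0.06, unadjusted p = 0.0058), with an adjusted p of 0.0753 by edgeR and 0.0282 by DESeq2. Over 34 analyses, the main one included, the adjusted p ran from 0.0201 to 0.183. The lowest came from the fit without the 2 Chek2-/- libraries of lowest oocyte markers, chosen after seeing the data. The other 9 genes did not pass with any of the 3 tools, edgeR called 0 of the 10 and limma-voom 0, and 5.34% of all genes passed with edgeR. Tmem173 came next at 0.24 (SE 0.12, adjusted p = 0.241). Markers of other cell types shifted in the same comparison: the fitted change was negative for 7 of 8 fibroblast markers (median -0.25, 3 called lower) and for all 8 perivascular markers (median -0.55, 0 called), 2 of 8 pericyte markers were called lower, and the erythroid markers had a median of 2.32 (0 called). The erythroid sum stood apart in 1 library, Chek2-/- nonIR replicate 5 at 10793 CPM, while the other 5 of that group (424 to 1046 CPM) overlapped WT nonIR (452 to 1226 CPM). The part of these shifts in the genotype changes of Mavs and the other pathway genes was not tested.

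**Figure D2:**
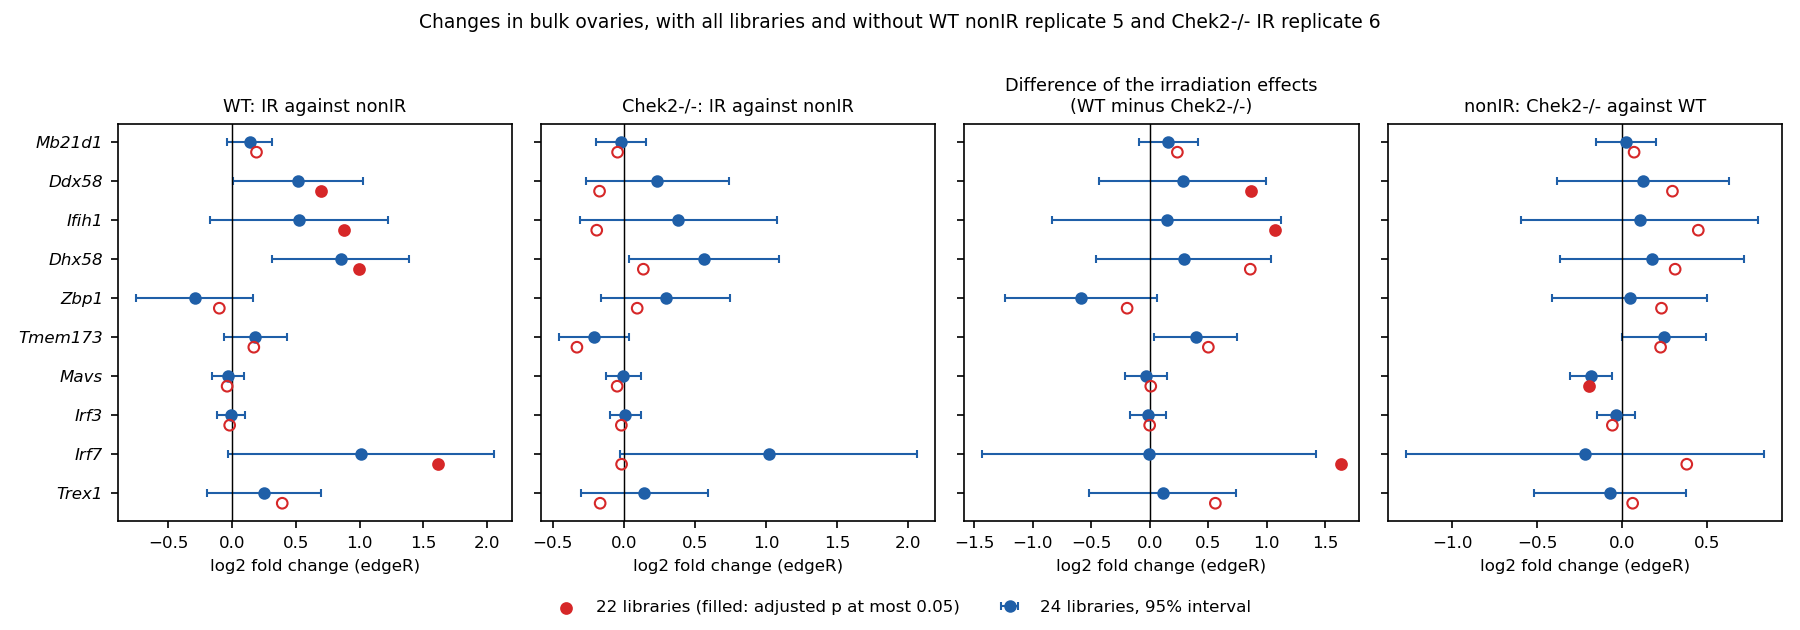
Fitted log2 change of each of the 10 genes in 4 panels: IR against nonIR in WT, the same in Chek2-/-, the difference of those changes, and Chek2-/- against WT without IR. Blue points with 95% intervals are from all 24 libraries, and red points, filled where the adjusted p was at most 0.05, are from the 22 libraries without WT nonIR replicate 5 and Chek2-/- IR replicate 6: in WT, Irf7 moves from 1.01 to 1.62 and in Chek2-/- from 1.02 to -0.02, while Irf3 and Mavs stay near 0 in both.

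The fits were repeated without WT nonIR replicate 5 and Chek2-/- IR replicate 6, which were picked because Irf7 was highest there, so the values for Irf7 and the genes that follow it are a description of the remaining libraries and not independent evidence. Taking out the highest WT control raises the WT change of Irf7. Taking out the highest irradiated Chek2-/- library lowers the Chek2-/- change of Irf7. The direction of these shifts, and of the shift in their difference, was thus set by the choice. The libraries of highest Irf7 in the other groups, WT IR replicate 6 and Chek2-/- nonIR replicate 5, were kept. In WT, 4 of the 10 genes then passed (2.3% of all genes). The changes were 1.62 for Irf7 (adjusted p = 0.000627), 1.00 for Dhx58 (0.000714), 0.88 for Ifih1 (0.00771) and 0.70 for Ddx58 (0.00617). In Chek2-/- ovaries 0 of 10 passed (0.0113% of all genes), and the same genes changed by -0.02, 0.14, -0.19 and -0.17. The difference between genotypes passed for Irf7 (1.63, adjusted p = 0.029), Ddx58 (0.87, adjusted p = 0.0328) and Ifih1 (1.07, adjusted p = 0.0436), which are 3 of 10 where 1.14% of all genes passed, and Dhx58 was at 0.86 with an adjusted p of 0.085. Leaving out either library alone changed less: in WT the count was 1 (Dhx58) without Chek2-/- IR replicate 6 and 0 without WT nonIR replicate 5. Without IR, Mavs passed in the reduced set (-0.19, adjusted p = 0.0437, with 8.05% of all genes).

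Across all 24 libraries, the genes whose log2 CPM rose and fell most like each of the 10 were named by Pearson correlation. They were sought among 15955 genes with a mean of at least 1 CPM. This is a description over libraries that share group, depth and tissue makeup. They included WT nonIR replicate 5 and Chek2-/- IR replicate 6, far above the rest of their groups for Irf7. The part of those libraries in the correlations was not tested. Irf7 was most like Isg15 (0.959), Ifit1 (0.951) and Xaf1 (0.942), all known interferon-induced genes. Ifih1 was most like Parp14 (0.970) and Ddx58 (0.960), and Ddx58 was most like Parp14 (0.961), Ifih1 (0.960) and Parp9 (0.959). Dhx58 was nearest to Helz2 (0.879) and Trex1 to Trim30d (0.812). The other genes had other company: Tmem173 was nearest to Tpm4 (0.895), Mavs to Mgrn1 (0.909), Irf3 to Ap1m1 (0.814), Zbp1 to Sycp1 (0.834), a gene of the meiotic synaptonemal complex, and Mb21d1 to Tnfrsf9 (0.809). In the single cells described below, however, oocytes held 0.836% of the Zbp1 UMIs and fibroblasts 61.0%.

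The other genes of the pathway were read from lists by role. Of 24 further sensors, 0 passed in any of the 4 comparisons by edgeR, with 6, 2, 2 and 3 at an unadjusted p under 0.05 (IR in WT, IR in Chek2-/-, difference, genotype), where 11.4, 4.4, 9.14 and 21.6% of all genes were under it. After IR in WT, DESeq2 called 1 (Lrrfip1) and limma-voom 2 (Oas1a and Oas2). The 2 with the lowest p after IR in WT were Lrrfip1 (0.34, adjusted p = 0.0888) and Oas1a, a 2′-5′ oligoadenylate synthetase (1.94, adjusted p = 0.179). Of 12 adaptors and kinases, 1 rose after IR in WT, where 2.41% of all genes were called: Traf3, a ubiquitin ligase that links MAVS to the kinase TBK1, was at 63.2 ± 3.15 CPM in nonIR and 88.9 ± 12.3 CPM in IR (SD, n = 6 each), and the lowest irradiated library, 79.3 CPM, lay above the highest control, 68.9 CPM. Its change was 0.49 (SE 0.09, adjusted p = 0.000703) in WT and 0.10 (adjusted p = 1) in Chek2-/-, and the difference between these did not pass (0.40, adjusted p = 0.151). Without IR, 3 of the 12 were higher in Chek2-/-: Tank (0.29, adjusted p = 0.0248), Azi2 (0.19, adjusted p = 0.0286) and Tbk1 (0.14, adjusted p = 0.045), all part of the TBK1 kinase complex, beside 5.34% of all genes, and each change was under 2-fold. None of the 12 passed there when only the groups compared were fitted, or without WT nonIR replicate 2, WT nonIR replicate 4 or Chek2-/- nonIR replicate 6.

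Of 15 nucleases and brakes 0 passed by edgeR in the 4 comparisons (2, 0, 0 and 2 at an unadjusted p under 0.05, and with DESeq2 1, Pnpt1, between genotypes), with Socs1, an inhibitor of JAK kinases, at 0.23 (adjusted p = 0.172) and Banf1 at -0.12 (adjusted p = 0.219) after IR in WT. Of 9 receptors and JAK kinases 0 passed by edgeR (1, 0, 1 and 3 at an unadjusted p under 0.05), with Tyk2 at -0.14 (adjusted p = 0.291) in WT, and DESeq2 called 2, Jak1 and Jak2, between genotypes. Of 5 necroptosis partners of ZBP1 0 passed with edgeR, DESeq2 or limma-voom (0, 0, 0 and 2 at an unadjusted p under 0.05), with Mlkl at 0.24 (adjusted p = 0.563) after IR in WT.

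Of the 25 interferon targets, 0 passed after IR in either genotype by edgeR, with 4 in WT and 0 in Chek2-/- at an unadjusted p under 0.05 (11.4% and 4.4% of all genes), and in WT DESeq2 called 1 (Rtp4) and limma-voom 2 (Rtp4 and Oas1a). In WT 23 of 25 had a positive fitted change with a median of 0.51 (48.7% of all genes positive), and without WT nonIR replicate 5 all 25 with a median of 1.01. In Chek2-/- 24 of 25 had a positive fitted change with a median of 0.59, and this rested on Chek2-/- IR replicate 6, since without it 1 of 25 was positive and the median was -0.25. Rtp4 came nearest in WT at 1.27 (adjusted p = 0.0812), and in Chek2-/- Ifit3, a tetratricopeptide protein of the antiviral response, was at 1.97 (adjusted p = 1). Without WT nonIR replicate 5 and Chek2-/- IR replicate 6, 13 of the 25 passed in WT (2.3% of all genes), 0 in Chek2-/- (0.0113%) and 5 in the test of the difference (1.14%). Those libraries were picked on Irf7, which interferon targets follow, so these counts too are a description and not independent evidence.

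Of 20 interferon genes, 5 had enough counts to be tested, and Ifnl2, a type III interferon, was detected in one group. The 6 WT IR libraries held 4, 3, 5, 9, 10 and 10 counts of Ifnl2, and the other 18 libraries held 0. The irradiated WT group was at least 14.5-fold higher than a floor of 3 counts summed over WT nonIR, at least 15.6-fold higher than that floor in Chek2-/- nonIR and at least 16.1-fold higher than that floor in Chek2-/- IR, with an adjusted p of 0.00307 for IR in WT. Since 3 groups held no count, the difference between genotypes had no usable estimate for it by edgeR (adjusted p = 1), and limma-voom called it.

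Single cells placed the 10 genes in cell classes. After filters and removal of 4.02 to 5.47% of cells as likely doublets, 36524 cells remained, of which 18745 were fibroblast-like, 13208 granulosa-like, 1101 perivascular-like, 953 epithelial-like, 767 endothelial-like, 664 pericyte-like, 583 oocyte-like and 143 macrophage-like. Pairs of libraries shared 0.16 to 0.33% of cell barcodes. Each class held the markers of its name: for example, the oocyte list summed to 167 to 219 UMIs per 10000 in the oocyte-like cells of the 4 libraries and to 0.376 to 1.04 in the granulosa-like cells. A class is called below by its name alone, and its level is given as UMIs per 10000 UMIs of the class, with 95% exact Poisson limits that cover counting error only.

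Irf3 and Mavs were expressed in all classes. Irf3 lay between 0.343 in perivascular cells and 0.467 in pericytes among the 8 named classes above, and oocytes, at 0.442 (0.427 to 0.458), did not stand apart. Mavs had 62.2% of its UMIs in granulosa cells, where it was at 0.227 (0.221 to 0.232), against 0.0906 (0.0871 to 0.0943) in fibroblasts and 0.112 (0.105 to 0.120) in oocytes. Macrophages, at 0.287 (0.215 to 0.374), and epithelial cells, at 0.227 (0.209 to 0.247), did not differ from each other beyond these limits.

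The levels of the DNA-sensing pair differed between classes. Mb21d1 had 72.4% of its UMIs in fibroblasts, where it was at 0.170 (0.165 to 0.175), and it was at 0.0909 (0.0841 to 0.0981) in oocytes and at 0.0197 (0.0181 to 0.0213) in granulosa cells. Tmem173 was highest among the named classes in macrophages, at 0.228 (0.165 to 0.307), and in endothelial cells, at 0.201 (0.179 to 0.225). It was at 0.0665 (0.0635 to 0.0697) in fibroblasts, 0.0159 (0.0145 to 0.0173) in granulosa cells and 0.00999 (0.00782 to 0.0126) in oocytes. Mb21d1 was also at 0.159 (0.107 to 0.227) in macrophages and at 0.0899 (0.0754 to 0.106) in endothelial cells. Fibroblasts, macrophages and endothelial cells were thus among the classes that held both, while granulosa cells held little of either and oocytes mostly the sensor. Mb21d1 was uneven among fibroblasts. In WT nonIR and WT IR, the cluster led by Mxd3 and Sct (920 and 1156 cells) held 726 and 765 Mb21d1 UMIs. The cluster led by Srpx2 (1916 and 1625 cells) held 253 and 203, and the one led by Fmo2 (1919 and 1980 cells) 126 and 159. Over all libraries, the median depth was 20144, 13479 and 9076 UMIs per cell in the same order of clusters. Top2a, a gene of dividing cells, was among the leading genes of the first. Tmem173 gave 92 and 95 UMIs in the first, 188 and 177 in the second and 137 and 198 in the third.

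The RNA sensors were highest outside the follicle. Ddx58 was at 0.374 (0.351 to 0.399) in epithelial cells, 0.345 (0.266 to 0.440) in macrophages and 0.254 (0.229 to 0.281) in endothelial cells, against 0.0819 in granulosa cells, 0.0814 in fibroblasts and 0.0289 (0.0251 to 0.0331) in oocytes. Ifih1 was at 0.319 (0.297 to 0.341) in epithelial cells, 0.265 (0.197 to 0.350) in macrophages and 0.222 (0.186 to 0.262) in pericytes. Granulosa cells, at 0.107, held 60.6% of the Ifih1 UMIs. The epithelial levels rested on the WT IR library, with 0.736 for Ddx58 and 0.573 for Ifih1 there, against 0.188 to 0.232 and 0.186 to 0.223 in the other 3 libraries, each below the pooled macrophage level. In granulosa cells Ddx58 was likewise at 0.164 in WT IR and at 0.0501 to 0.0583 in the other 3 libraries, each below the 0.0789 to 0.0835 of fibroblasts. Oocytes were the lowest named class for Ifih1 at 0.0230 (0.0197 to 0.0268), below fibroblasts at 0.0261 (0.0242 to 0.0281), and these limits overlapped. Dhx58 was at 0.186 (0.129 to 0.258) in macrophages and 0.0535 (0.0425 to 0.0666) in endothelial cells, and at or below 0.0129 in the other named classes. Zbp1 was at 0.244 (0.179 to 0.326) in macrophages and at 0.247 (0.168 to 0.351) in an unnamed cluster of 124 cells led by Ccr2, Cxcr6 and Cd3g.

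With the 4 libraries pooled, Irf7 was at 0.218 (0.156 to 0.295) in macrophages, 0.200 (0.183 to 0.218) in epithelial cells, 0.130 (0.113 to 0.150) in endothelial cells and 0.0104 (0.00819 to 0.0131) in oocytes. The epithelial level rested on the WT IR library, at 0.496, and in the other 3 libraries it was 0.0452 to 0.0738, below the 0.116 to 0.152 of endothelial cells in each library. Oocytes were the lowest named class in 3 libraries, while in WT IR they were at 0.0314 and fibroblasts at 0.0275, with limits that overlapped. Trex1 gave 3 UMIs in all cells together. All its exonic bases are shared with Atrip, so this count cannot be read as absence, and Trex1 is not described further in single cells.

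**Figure D3:**
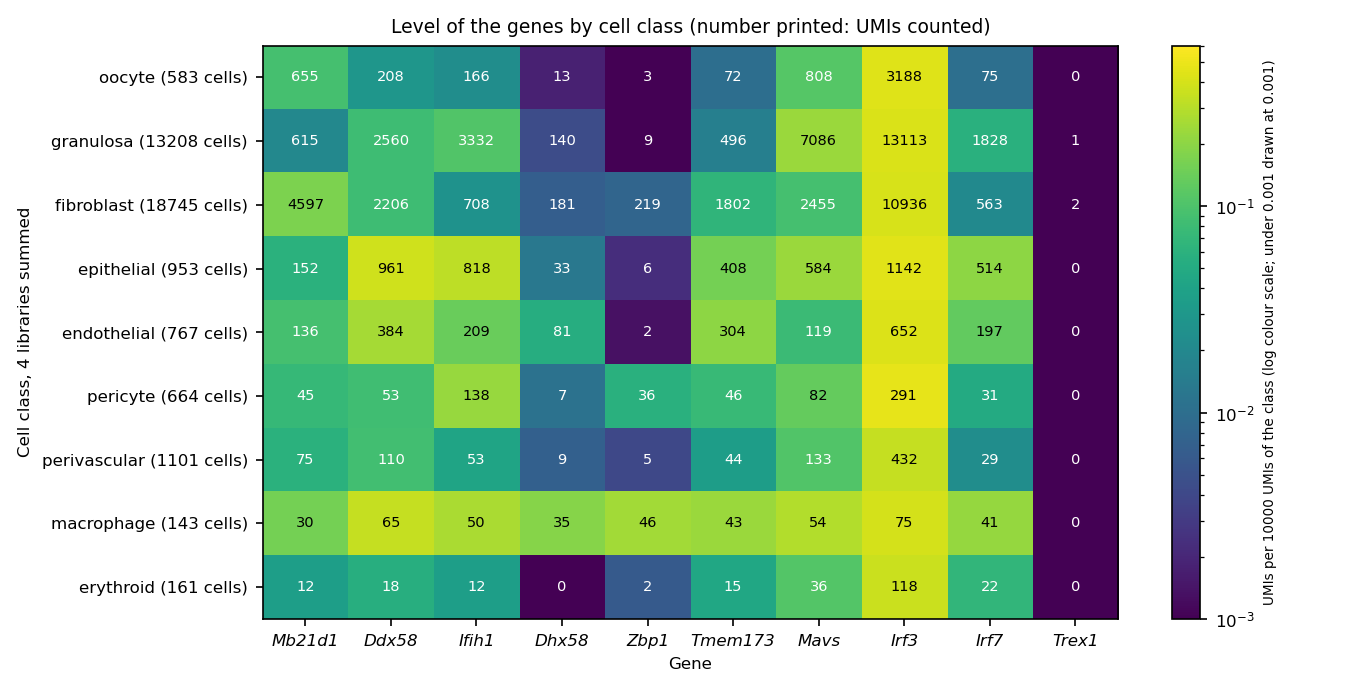
Level of each gene (columns) in 9 cell classes (rows) with the 4 single-cell libraries summed, as UMIs per 10000 UMIs of the class on a log colour scale, with the number of UMIs counted printed in each field. Irf3 is even over the classes, Mb21d1 is higher in fibroblasts (4597 UMIs) than in granulosa cells (615 UMIs), and the epithelial fields of Ddx58 (961 UMIs) and Ifih1 (818 UMIs) hold 603 and 469 UMIs from the WT IR library.

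In WT, Irf7, Ddx58, Ifih1 and Dhx58 were higher in the IR library than in the nonIR library in granulosa and epithelial cells. A gene was counted as past 1.5-fold when the ratio of IR to nonIR was at least 1.5 with 95% limits that excluded 1 and with at least 20 UMIs in both libraries together. In granulosa cells this held for 5 of the 8 genes with enough UMIs (Ddx58, Dhx58, Ifih1, Irf7 and Tmem173), beside 4.15% of all genes in that direction. In epithelial cells it held for 4 of 8 (Ddx58, Dhx58, Ifih1 and Irf7), beside 7.24%, and in oocytes for 3 of 7 (Ddx58, Irf7 and Mb21d1), beside 13.9%. In fibroblasts it held for 3 of 9 (Dhx58, Irf7 and Zbp1), beside 2.06%, and in macrophages for 0 of 6 and in endothelial cells for 0 of 8, beside 4.06% and 1.91%. In pericytes and perivascular cells it held for 0 of 5 each, beside 2.08% and 2.38%. Each ratio compares 1 library with 1 library.

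Irf7 had the largest ratio of the set in granulosa and in epithelial cells, and in each the wider limits of Dhx58, given below, contained it. In WT epithelial cells it went from 36 UMIs in nonIR to 406 in IR, a ratio of 7.35 (5.22 to 10.6), and in WT granulosa cells from 279 to 1160, a ratio of 3.88 (3.40 to 4.43). In the Chek2-/- libraries the ratio was 0.613 (0.368 to 1.01) in epithelial cells, from 44 to 28 UMIs, and 0.847 (0.691 to 1.04) in granulosa cells, from 194 to 195 UMIs. The 4 clusters of granulosa cells had ratios from 2.71 to 4.43 in WT and from 0.659 to 1.20 in Chek2-/-. Fibroblasts had a ratio of 1.51 (1.19 to 1.91) in WT and 0.924 (0.717 to 1.19) in Chek2-/-. In macrophages the counts went the other way, from 13 to 5 UMIs, too few for the count above.

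For Ddx58 and Ifih1 the epithelial and granulosa ratios were also above 1. Ddx58 went from 124 to 603 UMIs in WT epithelial cells, a ratio of 3.17 (2.61 to 3.88), and from 405 to 1284 in WT granulosa cells, a ratio of 2.96 (2.64 to 3.31). Ifih1 went from 100 to 469 UMIs in WT epithelial cells, a ratio of 3.06 (2.46 to 3.83), and from 659 to 1163 in WT granulosa cells, a ratio of 1.65 (1.49 to 1.81). In Chek2-/- granulosa cells, the ratios over the class were 0.860 (0.751 to 0.984) and 0.840 (0.759 to 0.931). In each of the 4 granulosa clusters the limits of Ddx58 included 1, and those of Ifih1 excluded 1 only in the cluster led by Bcan, Angptl6 and Dmrta1 (0.840, 0.707 to 0.996), which held 1102 cells without and 816 with IR. In Chek2-/- epithelial cells both limits included 1. In fibroblasts the limits included 1, with WT ratios of 1.03 (0.910 to 1.16) for Ddx58 and 0.977 (0.800 to 1.19) for Ifih1.

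Dhx58 was sparser and moved in the same direction, from 15 to 59 UMIs in WT granulosa cells (3.67, 2.05 to 6.96) and from 3 to 24 in WT epithelial cells (5.21, 1.58 to 27.0). Of the granulosa clusters with at least 20 Dhx58 UMIs in WT, the one led by Ank1 went from 12 to 17 UMIs (1.52, 0.686 to 3.5) and the one led by Bcan from 1 to 24 UMIs (15.5, 2.53 to 638), while its cells went from 860 to 1357. In Chek2-/- granulosa cells Dhx58 went from 35 to 31 UMIs (0.746, 0.445 to 1.25). Tmem173 went from 102 to 166 UMIs in WT granulosa cells, a ratio of 1.52 (1.18 to 1.96), and in Chek2-/- granulosa cells the ratio was 0.719 (0.549 to 0.941). Of the 3 granulosa clusters with at least 20 Tmem173 UMIs, the WT limits excluded 1 only in the cluster led by Bcan, at 1.75 (1.24 to 2.52), which held 860 WT cells without and 1357 with IR. The clusters led by Ank1 and by Ihh had WT ratios of 1.46 (0.694 to 3.15) and 0.846 (0.465 to 1.52), and in Chek2-/- the limits included 1 in all 3. The signs fitted for Tmem173 in bulk were also opposite, and the difference there did not pass. Mavs and Irf3 had WT ratios of 1.01 (0.948 to 1.09) and 1.08 (1.03 to 1.13) in granulosa cells.

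Marker levels in the same cells also shifted. Per 10000 UMIs, the granulosa list summed to 48.8 in WT nonIR and 44.9 in WT IR granulosa cells, and the epithelial list to 1.85 and 2.54 there. In epithelial cells, the epithelial list summed to 61.9 and 69.4, the granulosa list to 19.3 and 14.8 and the macrophage list to 0.0431 and 0.0757. The part of these shifts in the ratios was not tested.

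**Figure D4:**
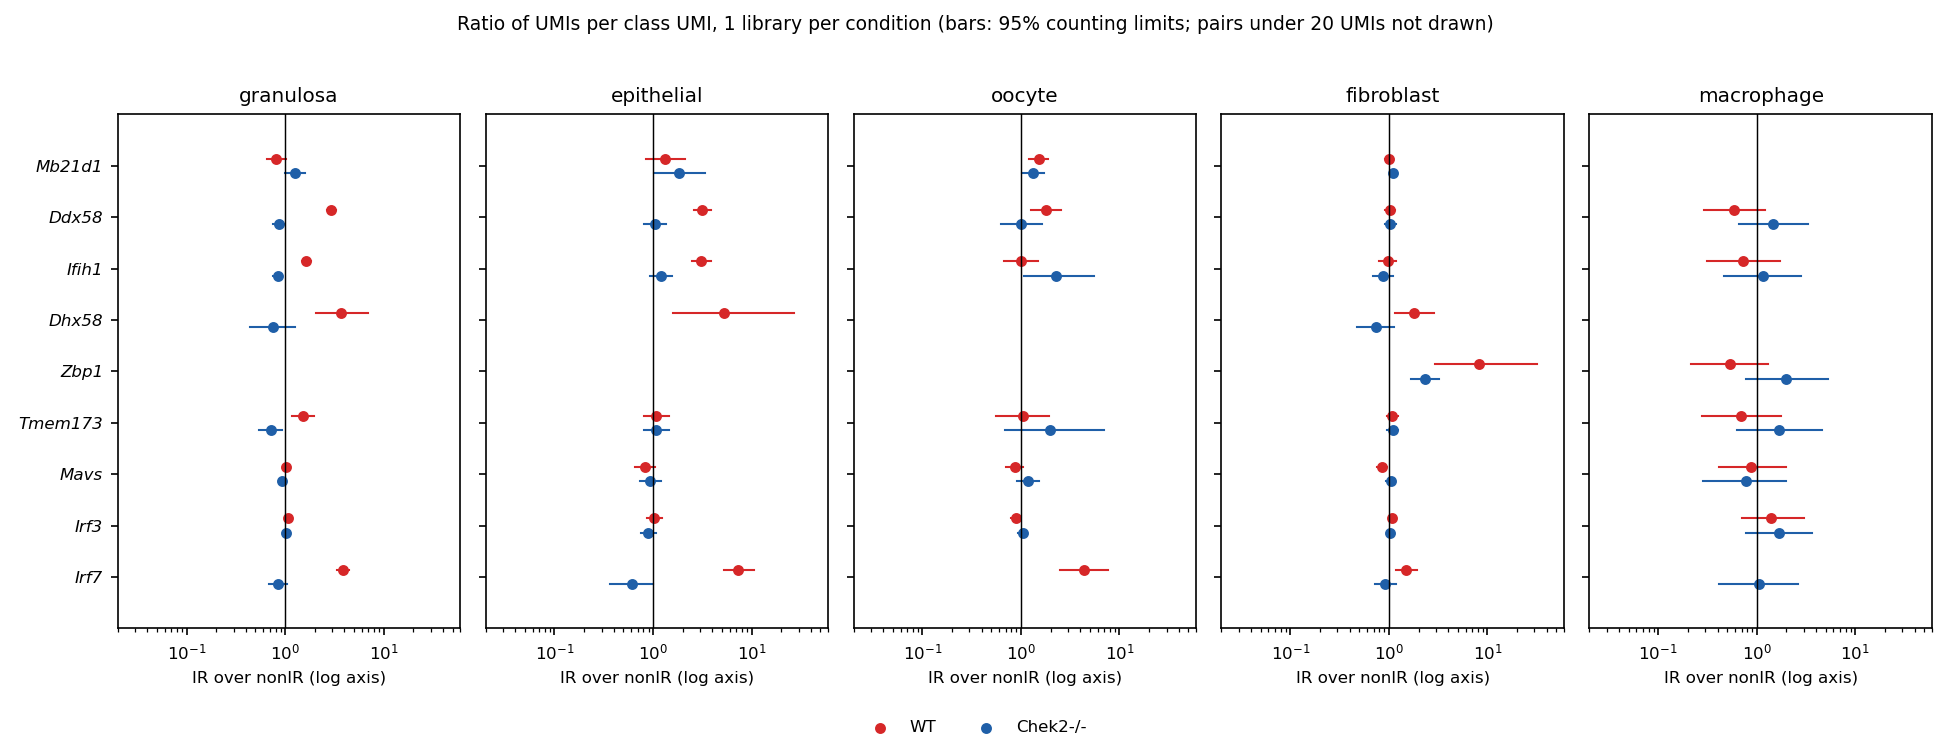
Ratio of IR to nonIR for 9 of the genes in 5 cell classes, on a log axis, for the WT (red) and Chek2-/- (blue) pairs of single-cell libraries, with bars for 95% counting limits and no point under 20 UMIs. In granulosa cells the WT points of Irf7 (3.88), Dhx58 (3.67), Ddx58 (2.96) and Ifih1 (1.65) lie above 1 and their Chek2-/- points below 1, and in macrophages all drawn limits include 1.

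Oocytes of the young ovary are known to be lost after IR through CHEK2 signalling. The class held 196 WT nonIR, 171 WT IR, 75 Chek2-/- nonIR and 141 Chek2-/- IR cells, with 28927928, 13377818, 11869791 and 17883918 UMIs, and WT IR oocytes held fewer UMIs per cell than WT nonIR oocytes. Irf7 went from 21 to 42 UMIs in WT (ratio 4.33, 2.50 to 7.69), and the 42 UMIs lay in 16 cells with 15 in a single cell. Ddx58 went from 71 to 59 UMIs (1.80, 1.25 to 2.57), in 21 cells with 14 in a single cell, and Mb21d1 from 219 to 153 UMIs (1.51, 1.22 to 1.87). In the Chek2-/- oocytes Ifih1 went from 9 to 31 UMIs (2.29, 1.06 to 5.46) and Mb21d1 from 95 to 188 (1.31, 1.02 to 1.70). The granulosa list summed to 7.49 per 10000 in WT nonIR oocytes and 2.79 in WT IR oocytes. The epithelial list summed to 0.588 and 2.10 there, and the macrophage list to 0.0854 and 0.324. The part of these differences in the ratios was not tested.

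In fibroblasts, Zbp1 gave 4 UMIs in the 5063 WT nonIR fibroblasts, 33 in WT IR, 53 in Chek2-/- nonIR and 129 in Chek2-/- IR. The ratio of IR to nonIR was 8.26 (2.94 to 32.1) in WT and 2.30 (1.66 to 3.23) in Chek2-/-, where Zbp1 was the single gene of 9 past 1.5-fold (2.45% of all genes), and Chek2-/- nonIR exceeded WT nonIR by 13.5-fold (4.95 to 51.2). In bulk, where 6 libraries per group were measured, Zbp1 did not pass in any of these comparisons, with a genotype change of 0.04 (95% interval -0.41 to 0.50, adjusted p = 0.948). The macrophage list in fibroblasts summed to 0.0765, 0.0923, 0.102 and 0.0954 per 10000 in the same order of libraries.

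In Chek2-/- granulosa cells 0 of 8 genes were past 1.5-fold higher after IR (1.67% of all genes), in Chek2-/- epithelial cells 1 of 7 (Mb21d1, 19 to 36 UMIs, beside 2.38%) and in Chek2-/- oocytes 1 of 6 (Ifih1, beside 6.61%). The count was 0 of 7 in Chek2-/- macrophages (4.1%), 0 of 8 in endothelial cells (2.12%), 0 of 6 in pericytes (3.39%) and 0 of 6 in perivascular cells (1.74%). In Chek2-/- pericytes 2 of 6 genes were lower, Ddx58 at 0.346 (0.135 to 0.797) and Ifih1 at 0.470 (0.278 to 0.775), beside 1.91% of all genes. Without IR, 3 of 7 genes were lower in Chek2-/- than in WT oocytes, Ifih1 at 0.255 (0.113 to 0.507), Tmem173 at 0.348 (0.107 to 0.892) and Mavs at 0.584 (0.462 to 0.734), where 11.8% of all genes were lower. The granulosa list summed to 7.49 per 10000 in WT nonIR oocytes and 2.86 in Chek2-/- nonIR oocytes, Ifih1 and Mavs were both higher in granulosa cells than in oocytes, and the part of this in the ratios was not tested. Mb21d1 was lower in Chek2-/- epithelial cells (0.531, 0.285 to 0.966), 1 of 7 genes beside 2.88%. Dhx58 was higher in Chek2-/- granulosa cells (2.30, 1.23 to 4.54), 1 of 8 beside 2.39%, and Dhx58 and Zbp1 in Chek2-/- fibroblasts, 2 of 9 beside 2.44%. Tmem173 was higher in Chek2-/- endothelial cells (1.76, 1.25 to 2.49), 1 of 8 beside 3.74%, and Irf3 and Tmem173 in perivascular cells, 2 of 6 beside 2.45%.

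The other pathway genes were also compared by class. In WT epithelial cells, 49 of 73 list genes with at least 50 UMIs had limits above 1 and 3 below, where 20.9% of all genes were above and 21.5% below by the same rule. Oas1a went from 0 to 69 UMIs, which is at least 15.0-fold above 3 counts, and has no measured ratio to rank. The largest measured ratios belonged to Ifit3b (1 to 252 UMIs, 164, 29.2 to 6511), Ifit3 (61.7, 31.1 to 143) and Usp18 (43.3, 16.7 to 160). In WT granulosa cells, 48 of 81 were above and 10 below (21.9% and 26.8% of all genes), led by Ifit1 (80.9, 49.6 to 142). In WT oocytes, 28 of 64 were above and 16 below (32.3% and 30.8% of all genes), with Isg15 at 10.4 (8.01 to 13.8) and Nlrc5, a regulator of MHC class I genes, at 0.181 (0.0944 to 0.319). In WT macrophages, 1 of 41 was above, the chemokine gene Cxcl10 at 10.3 (4.25 to 32.3), and 8 were below, among them Isg15 at 0.374 (0.224 to 0.617), where 8.25% of all genes were above and 7.55% below. In the Chek2-/- pair the ratio of Ifit1 in granulosa cells was 1.83 (0.647 to 5.86) and that of Ifit3 in epithelial cells was 0.826 (0.349 to 1.92). In Chek2-/- oocytes, Isg15 was at 1.86 (0.633 to 6.59) and Nlrc5 at 1.75 (1.01 to 3.14). In Chek2-/- macrophages, Isg15 was also lower after IR, at 0.266 (0.09999 to 0.607). Cxcl10 was lower there too, at 0.074 (0.00864 to 0.287), opposite to WT. The macrophage class held 32 WT nonIR, 56 WT IR, 31 Chek2-/- nonIR and 24 Chek2-/- IR cells.

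Ifnl2 was found in oocytes. The WT IR library held 97 UMIs of Ifnl2 in 32 of its 171 oocytes, with at most 11 in a single cell, and 0 UMIs in all its other cells, including 3582 granulosa cells with a median depth, over the 4 libraries, of 20970 UMIs per cell against 102900 in oocytes. The other 3 libraries held 0 UMIs in any cell. Against a floor of 3 counts in the 196 WT nonIR oocytes, the level in WT IR oocytes was at least 69.9-fold higher. The near-identical gene Ifnl3 gave 8 UMIs, also in WT IR oocytes, and the split of reads between the paralogs is uncertain. Ifnl3, Ifnlr1 and Ifng were named after their values were seen. The receptor subunit gene Ifnlr1 gave 30 to 41 UMIs per library in granulosa cells (0.00342 to 0.00555 per 10000), 5 to 11 in oocytes (0.00374 to 0.00590) and 4 to 8 in epithelial cells (0.00489 to 0.0131), and Ifng was found in the cluster led by Ccr2, Cxcr6 and Cd3g, with at most 9 UMIs per library.

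**Figure D5:**
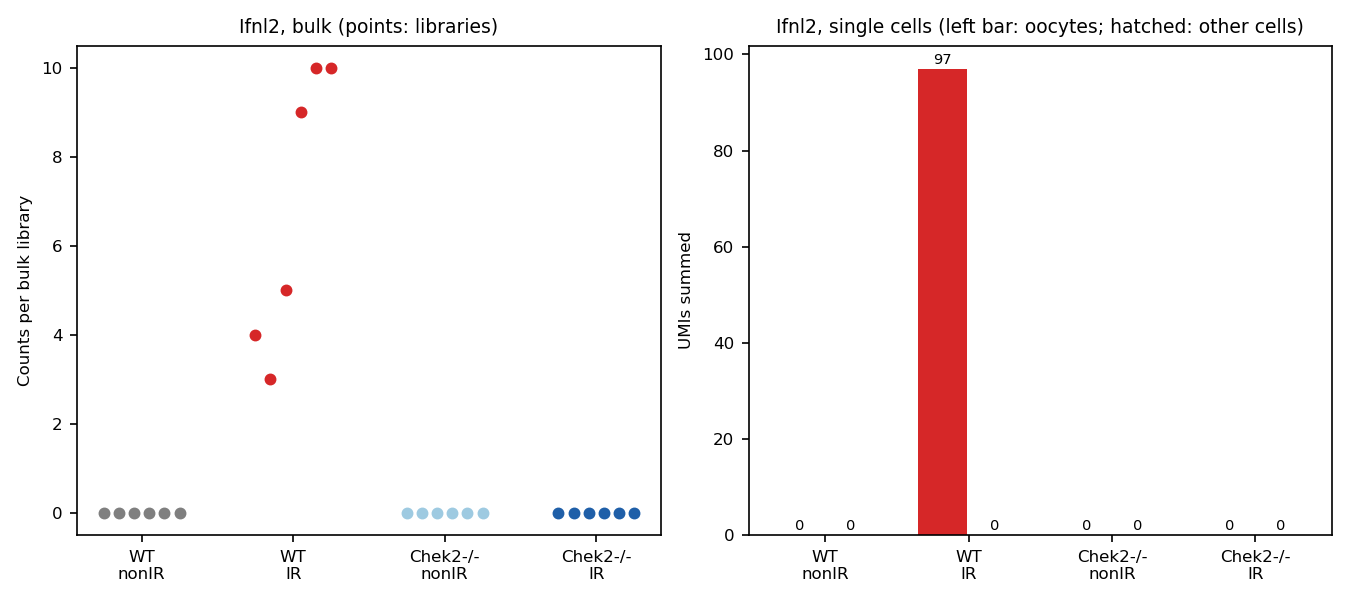
Ifnl2 in bulk (left, counts per library by group, 1 point per library) and in single cells (right, UMIs summed by library, with 1 bar for oocytes and 1 for all other cells). The 6 WT IR bulk libraries hold 3 to 10 counts and the WT IR oocytes 97 UMIs, and all other bars and points are at 0.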

How the data were processed

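Estimated counts per gene (Salmon, deposited by the authors) were available for 24 bulk libraries, and UMI counts per gene and cell (Cell Ranger, deposited by the authors) for 4 single-cell libraries. Estimated counts were rounded to whole numbers. Libraries were grouped by genotype and treatment from their labels. The 10 genes, the gene lists and the markers of the cell types named in the report were chosen with earlier results of these data known. The genes named from other lists in bulk were, per comparison, at most 4 that passed, by lowest p, or where none passed the 2 of lowest p, beside those that another tool called. For each of the 10 genes, up to 3 genes of highest correlation were named, and in single cells genes were taken from the 4 with the largest and the 4 with the smallest WT ratio per class among those with at least 50 UMIs.

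Genes with at least 10 counts over the 24 libraries (26790) were fitted with edgeR 4.0.16 in R 4.3.3 (TMM, quasi-likelihood, 1 coefficient per group), with Benjamini-Hochberg adjustment over all genes and a threshold of 0.05. DESeq2 1.42.0, limma-voom (limma 3.58.1), other scalings and filters, a replicate block and fits without single libraries were alternatives. The script was tested on simulated data. The bulk libraries of a group differed from each other by more than sampling noise (chi-square per degree of freedom 5.85 to 55.3). No source used here says whether replicates share a litter, so p-values measure the spread between these libraries. The interval of a fitted change is its 95% interval.

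Cells with at least 1000 genes, at most 20% mitochondrial and at most 50% ribosomal UMIs were kept (scanpy 1.11.5), likely doublets were removed, and 2000 variable genes without the listed genes, 30 components and 15 neighbours gave Leiden clusters at a resolution of 0.5. Clusters were named from markers, with naming limits set after the clusters were seen. For each library, the UMIs of a class were added up, with exact Poisson limits for levels and exact binomial limits for ratios. Both cover counting error only. The floor for a gene at 0 was 3 counts. Chromosome positions are on GRCm38, and the submitters' processing notes name mm10. Salmon 1.3.0 and Trim Galore 0.6.5 are from those notes. Some results of the other lists are not reported here.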

Additional observations from a re-analysis of the deposited data

Results flagged for a closer look

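The 10 genes were read in the same 24 libraries and several rose and fell together. The sets below are thus not independent, and their count cannot be set against chance. In 11 of 40 sets of 6 libraries, each holding one of the 10 genes in one group, the highest or lowest library lay far from the others by Dixon's test, which flags about 1 in 20 single sets by chance. In 8 of them it was Chek2-/- IR replicate 6, the highest of its group for Ddx58 (61.7 CPM), Ifih1 (31.8 CPM), Irf7 (22.97 CPM), Dhx58 (4.47 CPM), Trex1 (12.4 CPM), Tmem173 (28.4 CPM), Mavs (58.9 CPM) and Irf3 (66.7 CPM). That library held the lowest summed oocyte markers of its group, 3105 CPM, and its part in these values was not tested. WT nonIR replicate 5 was the highest of its group for Ifih1 (17.5 CPM) and Irf7 (9.84 CPM), and its summed oocyte markers, 4933 CPM, lay within the range of the other controls. WT IR replicate 1 was the lowest of its group for Dhx58 (1.68 CPM).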

How the results depend on the processing

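The count of the 10 genes past the threshold was 0 in each comparison, and few alternatives moved it. After IR in WT it was 1 (Dhx58) with only the groups compared and with the replicate block, 1 without the 2 Chek2-/- libraries of lowest oocyte markers and 4 without the 2 libraries of highest Irf7, and leaving out 1 library gave 0 to 1 (1 without Chek2-/- IR replicate 6). For the difference between genotypes it was 3 without the 2 libraries of highest Irf7. Between genotypes without IR it was 1 (Mavs) with DESeq2, 1 without either pair of libraries and 0 to 1 without 1 library (1 without WT nonIR replicate 6 or Chek2-/- nonIR replicate 6). The Irf7 difference between genotypes went from -0.01 to 1.63 without the 2 libraries of highest Irf7, and of the changes that turned sign it alone passed the threshold.

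Of the 114 other pathway genes listed, not all of which had enough counts to be tested, 3 passed after IR in WT (2.41% of all genes). The count was 6 with DESeq2 (3.05% of all genes), 6 with limma-voom (2.43%), 7 with only the groups compared, 6 with the replicate block, 23 without the 2 libraries of highest Irf7 (2.3%), 9 without the 2 of lowest oocyte markers and 1 at 2-fold or more. Leaving out 1 library gave 3 to 9 (6 without WT nonIR replicate 5, 9 without Chek2-/- IR replicate 6). For the difference between genotypes the count of 1 (1.03% of all genes) became 2 with limma-voom (1.11%), 10 (1.14%) and 2 without those pairs, and 1 to 2 without 1 library (2 without Chek2-/- IR replicate 6). Between genotypes without IR the count of 3 (5.34% of all genes) became 8 with DESeq2 (9.36%), 0 with only the groups compared, 8 with the replicate block, 9 without the 2 libraries of highest Irf7 (8.05%) and 0 at 2-fold or more. The share of all genes thus rose together with the count. Leaving out 1 library there gave 0 to 5: 0 without WT nonIR replicate 2 or 4 or Chek2-/- nonIR replicate 6, 1 without WT nonIR replicate 3 or Chek2-/- nonIR replicate 1, and 5 without WT nonIR replicate 5, Chek2-/- nonIR replicate 5 or Chek2-/- IR replicate 6. The cause was not tested.

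Same-numbered libraries were not taken as paired, since not every pair deviated together with a correlation over 0.1: 16 of 36 did (range -0.194 to 0.657), with 3 of 6 between the WT groups and 5 of 6 between the Chek2-/- groups (0.0577 in the other), and 12 of 24 libraries correlated best with their own number. Of the fitted changes of the 10 genes over the alternatives, 1208 kept their direction and side of the threshold, 15 passed it with the same direction and 87 turned sign, 86 of them with an adjusted p over 0.05. The Irf7 difference between genotypes turned to 0.018 with DESeq2, 0.70 with limma-voom, 0.013 with RLE scaling, 0.014 with the stricter filter, 0.0077 with no filter, 0.41 with the replicate block and 0.94 without the 2 Chek2-/- libraries of lowest oocyte markers. Irf3 after IR in WT turned to 0.0048 with DESeq2, 0.0038 with RLE scaling, 0.0070 with the stricter filter, 0.0049 with no filter, 0.010 with only the groups compared and 0.0010 without the pair of lowest oocyte markers, and its difference between genotypes to 0.00069 with the stricter filter and 6.3e-05 without the pair of highest Irf7. Without the pair of highest Irf7, IR in Chek2-/- turned to -0.19 for Ifih1, -0.17 for Ddx58, -0.019 for Irf3, -0.017 for Irf7 and -0.17 for Trex1, the difference for Mavs to 0.0095, and the genotype change to 0.38 for Irf7 and 0.061 for Trex1. Without the pair of lowest oocyte markers, IR in Chek2-/- turned to -0.070 for Ifih1, -0.050 for Ddx58 and -0.057 for Trex1, and the genotype change of Ifih1 to -0.010. Leaving out 1 library gave 59 of the turns. For IR in Chek2-/- the ranges were -0.17 to 0.35 for Ddx58, -0.19 to 0.52 for Ifih1, -0.017 to 1.19 for Irf7 and -0.17 to 0.25 for Trex1, each turning without IR replicate 6 alone, and -0.019 to 0.049 for Irf3, -0.048 to 0.032 for Mavs and -0.045 to 0.0039 for Mb21d1. For IR in WT it was -0.025 to 0.036 for Irf3. For the difference they were -0.049 to 0.032 for Irf3, -0.17 to 1.05 for Irf7 and -0.062 to 0.029 for Mavs. For the genotypes they were -0.0085 to 0.44 for Ifih1, -0.37 to 0.38 for Irf7, -0.0093 to 0.066 for Mb21d1, -0.18 to 0.057 for Trex1 and -0.016 to 0.23 for Zbp1. The cause of the turns was not tested. With the stricter edgeR filter no interferon gene was left to test. In single cells, 520 ratios kept within their limits. With cells of at least 500 genes, 0 genes in Chek2-/- epithelial cells were past 1.5-fold, and with doublets kept the Mb21d1 granulosa ratio was 0.914 for IR in Chek2-/- and 0.921 between genotypes. The fits without chosen libraries were added after seeing the data. Low counts limit Dhx58, Zbp1 and Trex1, and 1 library per condition limits all single-cell ratios.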
